A study of Mus musculus with 9 samples.

Results

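Muller glia and gliosis genes were followed across the retinas of mice at postnatal day 8. The set held 10 listed genes (Gfap, Aqp4, Slc1a3, Dkk3, Clu, Mt1, Mt2, Hmox1, Osmr and Stat3), found by symbol in the platform annotation, each on 1 probe set, out of 24257 genes tested. The 9 arrays were Affymetrix whole-transcript arrays of whole retina on a C57Bl/6x129SvJ background. They formed 3 groups of 3 biological replicates: Rb/p107 DKO, which lacks Rb and the related pocket protein p107, Rb KO, which lacks Rb, and WT. The promoter or cell type behind the deletions was not given in the sources used here, so the share of cells that lost the genes is unknown. All values below are log2 intensities after robust multi-array averaging by the authors. In RNA of a whole retina, fewer cells of a type and less RNA per cell cannot be told apart.

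Muller glia are the radial glia of the retina. They take up glutamate, move water and potassium, recycle retinoids and support neurons, and they are among the last cells that retinal progenitors give rise to. When the retina is stressed or injured these cells can become reactive, a state called gliosis. The hallmark of gliosis is the intermediate filament protein GFAP, and cytokines that signal through the receptor chain gp130 and the transcription factor STAT3 are known to drive it. Metallothioneins and haem oxygenase 1 are stress proteins that glia and other cells induce by metals, oxidants and inflammation. Retinal astrocytes, which lie along the vessels of the nerve fibre layer, make GFAP as well.

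The arrays bear on each result as follows. Of 7 measured rod markers 6 were above background in every array, and all 7 were called lower in both mutants. Of all genes 17.1% were called lower in Rb/p107 DKO and 14.3% in Rb KO. The Gnat1 call in Rb/p107 DKO was lost in 6 of 9 fits with an array left out (adjusted p = 0.0549 to 0.126) and with the control separation described below as a covariate (adjusted p = 0.199), as was the Pde6a call in Rb/p107 DKO with that covariate (adjusted p = 0.0831). Rb1 itself read lower by a log2 fold change of -0.36 in Rb/p107 DKO (SE 0.117, adjusted p = 0.0423) and -0.31 in Rb KO (SE 0.117, adjusted p = 0.0793). Whether its probe set lies in the deleted part was not determined here, so it does not check the labels, and Rbl1, the gene of p107, was not analysed here. Xist read 5.47 in Rb/p107 DKO replicate 2, against 11.44 to 12.15 in the other 8 arrays, so calls that end without this array are named. Each array's background limit was set so that 95% of its 5222 negative controls lay below it, at 7.94 to 8.50. A reading under that limit is a background reading, and a difference between such readings has no measured size. How well positive controls stood apart from negative ones (the control separation) was 0.927 to 0.936 in Rb/p107 DKO, 0.928 to 0.935 in Rb KO and 0.932 to 0.954 in WT (area under the curve). Calls of named genes that ended with it as a covariate are given with that adjusted p.

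Of the 10 genes, 7 were called in Rb KO against WT, 2 higher and 5 lower, where 24.4% of all genes were called. In Rb/p107 DKO against WT 7 were called as well, 3 higher and 4 lower, where 29.3% of all genes were called. These 10 genes and the lists below were chosen with earlier results of these data known. The shares called, here and below, are therefore descriptions and no test of a set. Mt1 and Mt2 were higher in both mutants, and Hmox1 was called higher in Rb/p107 DKO. Clu, Aqp4, Slc1a3 and Osmr were lower in both mutants, and Gfap was called lower in Rb KO. Between the mutants 3 were called, all higher in Rb/p107 DKO than in Rb KO (Gfap, Mt1 and Hmox1), where 2.50% of all genes were called, 1.30% higher and 1.20% lower. The last count was 0 without Rb KO replicate 2, Rb KO replicate 3 or Rb/p107 DKO replicate 3 (5, 5 and 5 genes at an unadjusted p under 0.05), and 1 without Rb/p107 DKO replicate 1 or 2. A call means an adjusted p under 0.05 in limma, by Benjamini-Hochberg over all 24257 genes of the comparison. Any difference among the 3 groups was called for 8 of the 10 genes, all but Dkk3 and Stat3 (28.7% of all genes, F test). With the control separation as a covariate 4 of the 10 genes were called in Rb KO against WT and 6 in Rb/p107 DKO against WT, where Slc1a3 and Osmr dropped out and Gfap was gained as higher.

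**Figure D1:**
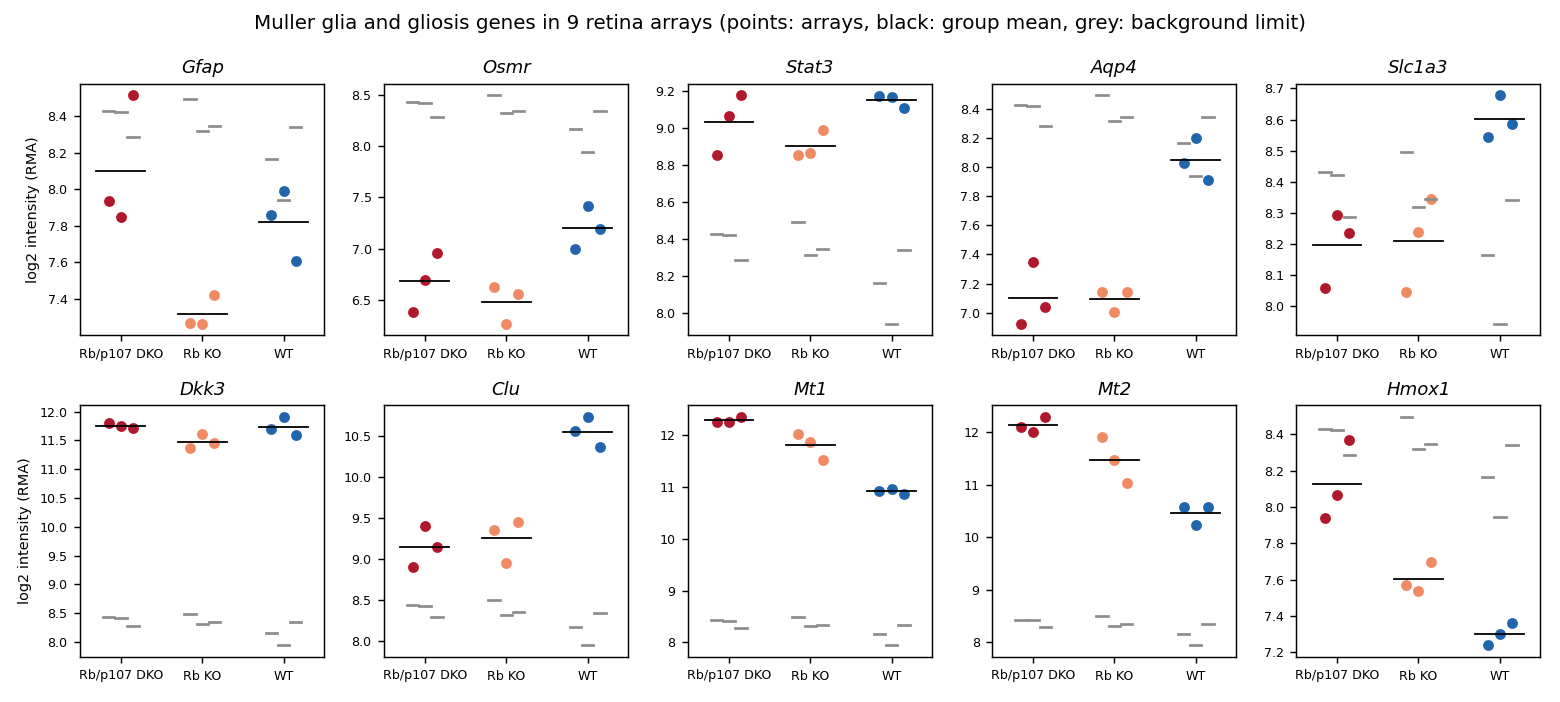
Log2 intensity (RMA) of the 10 genes in each array, in Rb/p107 DKO, Rb KO and WT from left to right, with a black line at each group mean and a grey mark at each array's background limit; each panel has its own axis. Mt1 and Mt2 lie far above the limit and step down across the 3 groups, Clu is lower in all 6 mutant arrays than in WT, and Gfap, Aqp4, Osmr and Hmox1 lie mostly below the limit.

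Of these probe sets 6 were above background in at least 3 arrays, and the other 4 were mostly or wholly below it. The arrays of both groups did not overlap for 7 of the 10 genes in Rb/p107 DKO against WT, where 43.9% of all genes did not overlap, and for 9 in Rb KO against WT, where 35.8% did not. Dkk3, Clu, Mt1, Mt2 and Stat3 were above the limit in all 9 arrays. Slc1a3 was above it in all 3 WT arrays and in no mutant array. Gfap was above it in 2 arrays, Aqp4 and Hmox1 in 1 array each, and Osmr in none. The median log2 fold change of the 10 genes was -0.32 in Rb KO and -0.05 in Rb/p107 DKO, against -0.05 and -0.06 over all genes.

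**Figure D2:**
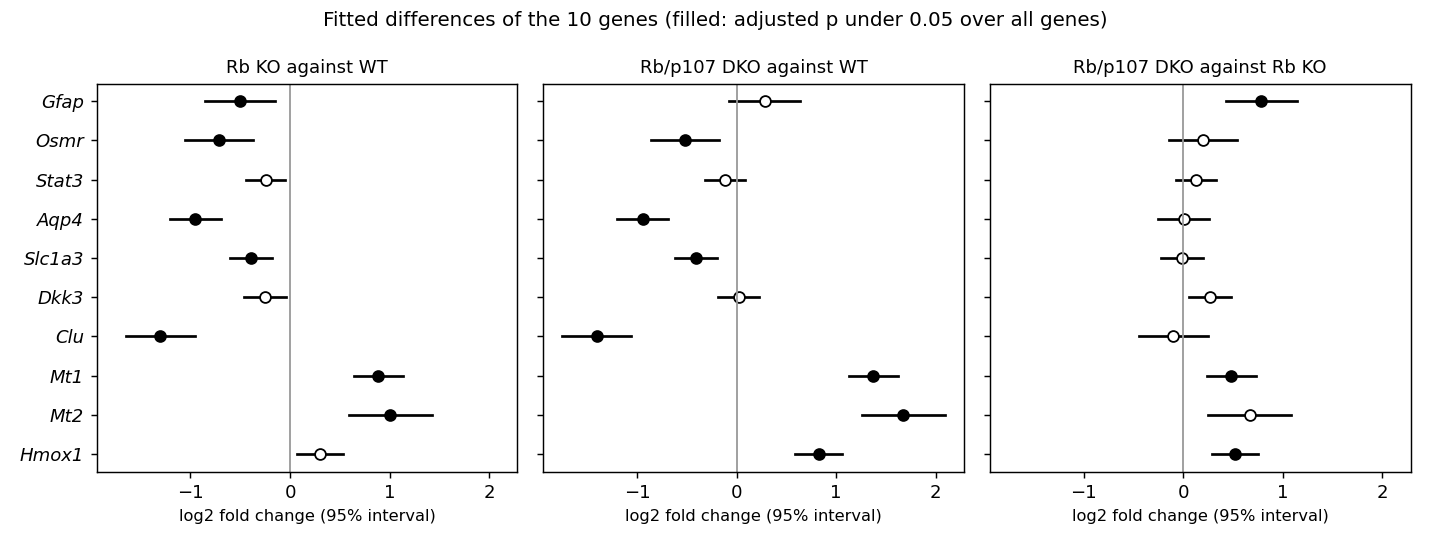
Fitted log2 fold change of each gene with its 95% interval, for Rb KO against WT, Rb/p107 DKO against WT and Rb/p107 DKO against Rb KO, with filled points where the adjusted p over all genes was under 0.05. The points of Gfap, Aqp4, Osmr and Hmox1 rest mostly on background readings and show no measured size. Clu sits below 0 in both mutants, Mt1 and Mt2 sit above 0, and the last panel holds filled points for Gfap, Mt1 and Hmox1 alone.

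Clu encodes clusterin, a secreted chaperone that Muller glia and other retinal cells make. Clu read 8.90, 9.40 and 9.14 in Rb/p107 DKO, 9.35, 8.95 and 9.44 in Rb KO, and 10.56, 10.73 and 10.37 in WT. Every mutant array was below every WT array, a pattern that 16.5% of all genes showed, while the mutants overlapped each other. The fold changes against WT were 2.65-fold lower in Rb/p107 DKO (log2 -1.40, SE 0.156, adjusted p = 8.4e-05) and 2.47-fold lower in Rb KO (log2 -1.30, SE 0.156, adjusted p = 0.000186). These calls held under all 17 alternatives. Between the mutants the difference was -0.10, with a 95% interval of -0.45 to 0.24 (adjusted p = 0.903).

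Aqp4 encodes the water channel of Muller cell endfeet, where it lies with the dystrophin complex. It read 6.92, 7.35 and 7.04 in Rb/p107 DKO, 7.14, 7.004 and 7.14 in Rb KO, and 8.03, 8.20 and 7.91 in WT. The WT arrays were all above the 6 mutant arrays. It was called lower in Rb/p107 DKO (adjusted p = 0.000157) and in Rb KO (adjusted p = 0.000201), and no alternative that could test it ended either call. The mutant readings all lay in the background and only WT replicate 2 was above its limit, so the size of the fall was not measured. The mutant readings overlapped each other (adjusted p = 0.995).

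Slc1a3 encodes GLAST, the main glutamate transporter of Muller glia, and Dkk3 a secreted protein of the Dickkopf family that adult Muller glia express. Slc1a3 read 8.06, 8.29 and 8.23 in Rb/p107 DKO, 8.05, 8.24 and 8.34 in Rb KO, and 8.54, 8.68 and 8.59 in WT. It was at least 1.17-fold lower in Rb/p107 DKO (adjusted p = 0.00832) and at least 1.16-fold lower in Rb KO (adjusted p = 0.0121), each bound being the WT mean against the background limit of the mutant arrays. Its calls ended with the control separation as a covariate (adjusted p = 0.099 in Rb/p107 DKO and 0.086 in Rb KO). Dkk3 read 11.80, 11.75 and 11.71 in Rb/p107 DKO, 11.37, 11.61 and 11.46 in Rb KO, and 11.69, 11.91 and 11.60 in WT. Its groups overlapped in both comparisons with WT, and neither passed, at 0.02 (SE 0.095, adjusted p = 0.902) in Rb/p107 DKO and -0.25 (SE 0.095, adjusted p = 0.0771) in Rb KO. Without WT replicate 3 the difference of Dkk3 in Rb KO passed (adjusted p = 0.0438), and it also passed once dim genes were filtered out (adjusted p = 0.0386).

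Other genes of Muller glia were called in both directions. Of 31 listed genes 24 were measured, and Glul, Vim and Kcnj10 were among those that were not. Of the 24 genes 5 rose and 7 fell in Rb/p107 DKO and 12 did not pass, and in Rb KO 6 rose, 8 fell and 10 did not pass. The median log2 fold change of the list was -0.07 in Rb/p107 DKO and 0.04 in Rb KO, where 58.3% of it was called, against 24.4% of all genes. Rlbp1, the retinoid-binding protein of mature Muller glia, read 10.74, 11.14 and 10.92 in Rb/p107 DKO, 10.95, 11.19 and 11.26 in Rb KO, and 11.89, 11.95 and 11.76 in WT. Its log2 fold changes were -0.94 (SE 0.114, adjusted p = 0.000155) and -0.73 (SE 0.114, adjusted p = 0.000969) in Rb/p107 DKO and Rb KO, and no array of either mutant reached a WT reading. Slc38a3, which exports glutamine, fell by 0.85 in Rb/p107 DKO and by 0.96 in Rb KO (SE 0.114 each). The glycolytic enzyme gene Aldoc fell by 1.10 in Rb/p107 DKO and by 0.98 in Rb KO (SE 0.133 each). Mlc1, a membrane protein of astroglial endfeet, fell by 1.09 in Rb/p107 DKO and by 1.27 in Rb KO (SE 0.173 each). The calls of these 4 falls held under every alternative run.

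Among the genes of that list that rose, Sox9, a transcription factor of progenitors and Muller glia, read 10.93, 10.72 and 10.69 in Rb/p107 DKO, 10.76, 10.73 and 10.26 in Rb KO, and 9.33, 9.54 and 9.48 in WT. Its log2 fold changes were 1.33 in Rb/p107 DKO (SE 0.132, adjusted p = 3.99e-05) and 1.13 in Rb KO (SE 0.132, adjusted p = 0.000159). The related Sox8 rose by 0.49 in Rb/p107 DKO and by 0.60 in Rb KO (SE 0.086 each). The Notch target Hes5 rose by 0.98 in Rb/p107 DKO and by 0.68 in Rb KO (SE 0.136 each), and Zfp36l1, which encodes an RNA decay factor, by 0.84 in Rb/p107 DKO and by 0.60 in Rb KO (SE 0.095 each). Hes1, another Notch target, stood at 0.25 in Rb/p107 DKO (adjusted p = 0.103) and rose in Rb KO (0.75, SE 0.106, adjusted p = 0.000517). It was lower in Rb/p107 DKO than in Rb KO (-0.50, SE 0.106, adjusted p = 0.0341), which did not hold without Rb KO replicate 2 or 3 or Rb/p107 DKO replicate 2 or 3 (adjusted p = 0.101 to 0.153) or with array medians centred. Apoe, the lipid carrier of glia, did not pass in either mutant (0.18 in Rb/p107 DKO and 0.17 in Rb KO, SE 0.097 each, adjusted p = 0.187 and 0.243).

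**Figure D3:**
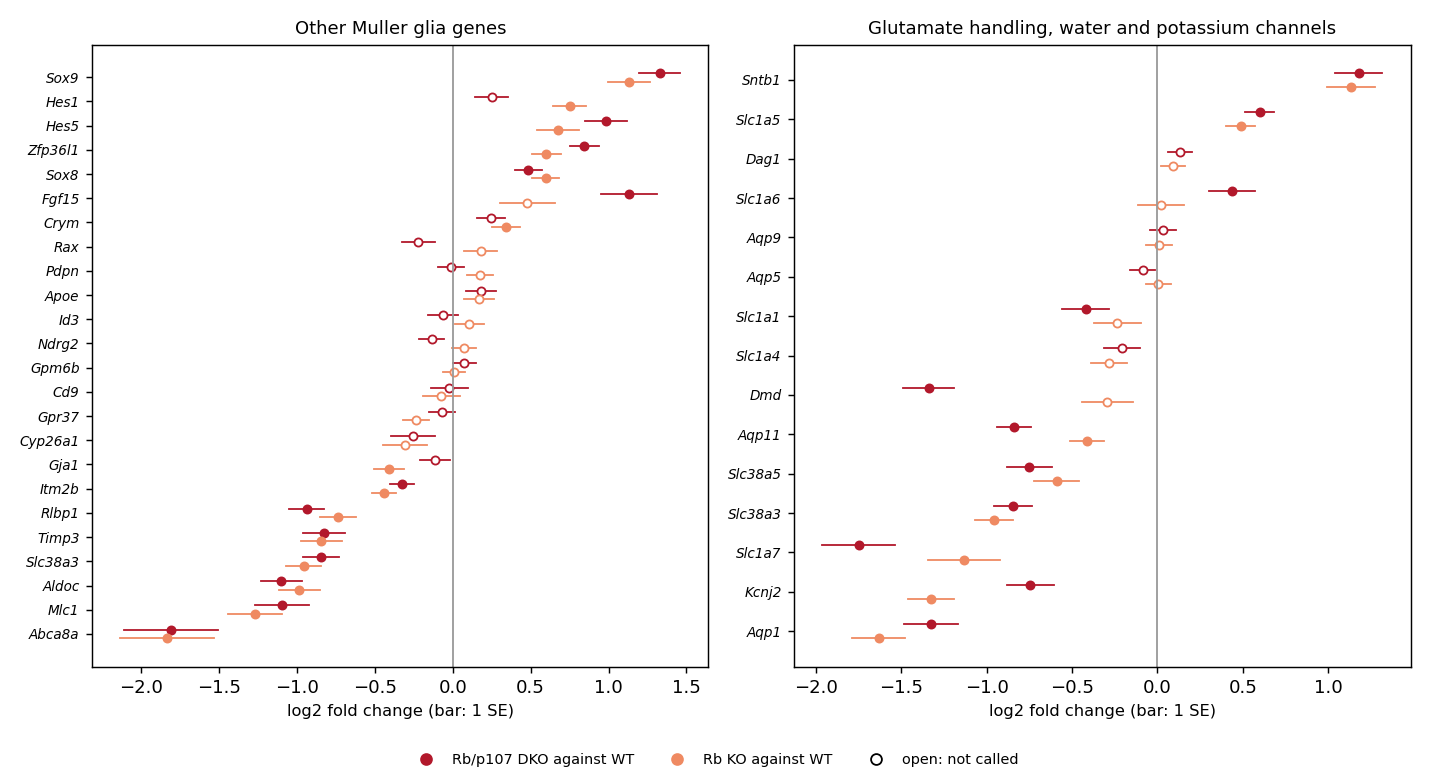
Fitted log2 fold change with 1 SE against WT for the other Muller glia genes (left) and for genes of glutamate handling and of water and potassium channels (right), in red for Rb/p107 DKO and orange for Rb KO, with open points where the call failed. Sox9, Hes5, Zfp36l1 and Sox8 lie to the right of 0 in both mutants, while Rlbp1, Slc38a3, Aldoc and Mlc1 lie to the left.

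Among genes that share the tasks of Slc1a3 and Aqp4 more fell than rose. Of 22 listed genes of glutamate handling and of water and potassium channels 15 were measured, and Slc1a2, Glul and Kcnj10 were among those that were not. Of the 15 genes 3 rose and 8 fell in Rb/p107 DKO, and 2 rose and 6 fell in Rb KO. The list was 73.3% called in Rb/p107 DKO and 53.3% in Rb KO, against 29.3% and 24.4% of all genes, with medians of -0.42 and -0.29, against -0.06 and -0.05. Slc1a7, a glutamate transporter that photoreceptors and bipolar cells express, was among the falls in both. The water channel gene Aqp1 read 6.75, 7.24 and 6.87 in Rb/p107 DKO, 6.75, 6.57 and 6.62 in Rb KO, and 8.29, 8.58 and 7.97 in WT. It was called lower in both (adjusted p = 0.00013 in Rb/p107 DKO and 4.22e-05 in Rb KO), with all mutant readings in the background. Kcnj2, an inward rectifier potassium channel, was called lower in both from background readings alone. Dmd, the dystrophin gene whose short products anchor Aqp4 in Muller endfeet, read 8.59, 8.98 and 8.77 in Rb/p107 DKO, 9.75, 9.77 and 9.97 in Rb KO, and 9.99, 9.91 and 10.47 in WT. Dmd fell by 1.34 in Rb/p107 DKO against WT (SE 0.148, adjusted p = 8.05e-05) and was lower in Rb/p107 DKO than in Rb KO (-1.05, SE 0.148, adjusted p = 0.0044). Against WT it did not pass in Rb KO (-0.29, adjusted p = 0.186). Sntb1, which encodes a syntrophin of that complex, rose by 1.18 in Rb/p107 DKO and by 1.14 in Rb KO (SE 0.139 each). The rises of Slc1a5 in both mutants and of Slc1a6 in Rb/p107 DKO rest on background readings, and the Slc1a6 call ended without WT replicate 3 or Rb/p107 DKO replicate 1 or 3 (adjusted p = 0.0972 to 0.133). Aqp11 was called lower in both mutants, in Rb KO only with Rb KO replicate 1 included (adjusted p = 0.0531 without it, 0.102 with the covariate), and its mutant readings were all background.

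Gfap, the filament gene that marks gliosis, was not raised in Rb KO. It read 7.94, 7.85 and 8.52 in Rb/p107 DKO, 7.27, 7.26 and 7.42 in Rb KO, and 7.86, 7.99 and 7.61 in WT. The Rb KO arrays were below all arrays of the other groups, and Rb/p107 DKO overlapped WT. Gfap was called lower in Rb KO than in WT (adjusted p = 0.0436) and higher in Rb/p107 DKO than in Rb KO (adjusted p = 0.0298), and it did not pass in Rb/p107 DKO against WT (adjusted p = 0.225). With the control separation as a covariate Gfap was instead called higher in Rb/p107 DKO than in WT (adjusted p = 0.0284). Only Rb/p107 DKO replicate 3 and WT replicate 2 were above their limits, so no size is given. The first call was lost on leaving out WT replicate 1 or 2 or any Rb KO replicate (adjusted p = 0.0607 to 0.125) and with the control separation as a covariate (adjusted p = 0.336). The second ended without any Rb KO replicate or without Rb/p107 DKO replicate 1 or 3 (adjusted p = 0.0559 to 0.118), and held without Rb/p107 DKO replicate 2 (adjusted p = 0.024).

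The Gfap window (RefSeq, GRCm38.p6, 250 bases before to 50 after the start, minus strand) is shown because STAT3 is known to act on this gene. Capitals mark the single match to the STAT dimer motif, searched as TTCNNNGAA, which reads the same on both strands. The match begins at base -2 relative to the start.
Gfap, chr11:102897151-102897450: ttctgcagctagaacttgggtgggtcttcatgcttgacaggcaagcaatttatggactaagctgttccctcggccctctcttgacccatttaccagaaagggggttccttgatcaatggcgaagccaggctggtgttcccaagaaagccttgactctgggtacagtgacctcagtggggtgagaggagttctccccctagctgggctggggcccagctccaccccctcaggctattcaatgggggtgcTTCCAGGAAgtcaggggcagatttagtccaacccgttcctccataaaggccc
Among 32851 such windows 8.3% held this motif at least once. Of the 6 genes with a window Slc1a3 also held 1 match, and Osmr and Stat3 held none. These letters are no evidence of binding, and whether STAT3 acts through them was not tested.

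Astrocyte markers moved with several of these genes. Of 10 markers 9 were measured, and 6 of these were not above background in any array, among them the defining astrocyte factor Pax2. Of the 9 markers 5 fell and 1 rose in Rb/p107 DKO (66.7% called, against 29.3% of all genes). In Rb KO 6 fell (66.7% called, against 24.4%). The summed linear intensity of the 9 markers was 2087 to 2651 in Rb/p107 DKO, 2356 to 2666 in Rb KO and 3905 to 4767 in WT. Aldoc, which Muller glia also express, made up the largest part of that sum, with means of 10.31 in Rb/p107 DKO, 10.43 in Rb KO and 11.41 in WT. Of the 9 markers 8 had background readings alone in each mutant. Slc14a1, a urea transporter, was at least 1.57-fold lower in each mutant (adjusted p = 8.2e-05 in Rb/p107 DKO and 0.00031 in Rb KO), while Pax2, called higher in Rb/p107 DKO (adjusted p = 0.00905), had background readings alone, and its call ended with the control separation as a covariate (adjusted p = 0.13). The part of astrocytes in the Gfap, Aqp4 and Slc1a3 results was not tested.

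Osmr encodes the oncostatin M receptor, which pairs with gp130, and Stat3 the factor that this receptor activates. Osmr read 6.39, 6.70 and 6.96 in Rb/p107 DKO, 6.63, 6.27 and 6.56 in Rb KO, and 7.002, 7.41 and 7.19 in WT. All 9 readings were background, so the lower values in Rb/p107 DKO (adjusted p = 0.0272) and Rb KO (adjusted p = 0.00644) have no measured size. The call in Rb/p107 DKO was lost on leaving out WT replicate 2 or 3 or Rb/p107 DKO replicate 1 or 2 (adjusted p = 0.0607 to 0.109), and both ended with the control separation as a covariate (adjusted p = 0.213 in Rb/p107 DKO and 0.0581 in Rb KO). Stat3 read 8.86, 9.07 and 9.18 in Rb/p107 DKO, 8.86, 8.87 and 8.99 in Rb KO, and 9.17, 9.17 and 9.11 in WT. The Rb KO arrays were all below the WT arrays, and Rb/p107 DKO overlapped both. Neither mutant passed for Stat3, at -0.12 (SE 0.089, adjusted p = 0.371) in Rb/p107 DKO and -0.25 (SE 0.089, adjusted p = 0.07) in Rb KO, although the value in Rb KO passed once dim genes were filtered out (adjusted p = 0.0347).

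Genes of the pathway around Stat3 were called in both directions. Of 24 listed genes of gp130 and STAT3 signalling 18 were measured. Called genes were 2 higher and 5 lower in Rb/p107 DKO, and 1 higher and 5 lower in Rb KO. The list was 38.9% called in Rb/p107 DKO and 33.3% in Rb KO, against 29.3% and 24.4% of all genes, and its medians of -0.05 and -0.03 were near those of all genes (-0.06 and -0.05). The ligand genes Lif, Il6, Il11, Osm and Clcf1 were in the background in every array, as was Socs3, the feedback inhibitor that STAT3 induces (adjusted p = 0.09 in Rb/p107 DKO and 0.309 in Rb KO). Lifr, the receptor for leukaemia inhibitory factor, read 8.96, 8.99 and 8.97 in Rb/p107 DKO, 9.47, 9.29 and 9.80 in Rb KO, and 9.95, 9.98 and 10.004 in WT. The 3 groups did not overlap. Lifr fell in Rb/p107 DKO (log2 fold change -1.001, SE 0.111, adjusted p = 8.19e-05) and in Rb KO (-0.46, SE 0.111, adjusted p = 0.0125). It was lower in Rb/p107 DKO than in Rb KO (-0.55, SE 0.111, adjusted p = 0.0295), which did not hold without Rb KO replicate 1 or 3 or any Rb/p107 DKO replicate (adjusted p = 0.0562 to 0.116). Il6st, which encodes gp130, fell by 0.37 in Rb/p107 DKO and by 0.36 in Rb KO (SE 0.086 each, adjusted p = 0.00814 and 0.0107). The kinase gene Jak1 fell by 0.42 in Rb/p107 DKO and by 0.36 in Rb KO (SE 0.077 each, adjusted p = 0.00215 and 0.00633). With the control separation as a covariate the Il6st calls ended in both mutants (adjusted p = 0.0818 and 0.068), and the Jak1 and Lifr calls ended in Rb KO (adjusted p = 0.0522 and 0.0549).

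Cntfr, the receptor chain for ciliary neurotrophic factor that neurons carry, was the gene of that list that rose in both mutants (0.41 in Rb/p107 DKO and 0.42 in Rb KO, SE 0.085 each, adjusted p = 0.00414 and 0.00475). Stat5b fell by 0.44 in Rb KO (SE 0.079, adjusted p = 0.00237) and did not pass in Rb/p107 DKO (-0.21, adjusted p = 0.0675). Stat5a was called lower in both mutants with all mutant readings in the background, and both calls ended with the covariate (adjusted p = 0.236 in Rb/p107 DKO and 0.0535 in Rb KO). Its call in Rb/p107 DKO (adjusted p = 0.0423) was lost on leaving out any Rb/p107 DKO replicate, either of Rb KO replicates 2 and 3, or either of WT replicates 1 and 2 (adjusted p = 0.0593 to 0.18). Ptpn6, a phosphatase gene of blood cells, was called higher in Rb/p107 DKO from background readings (adjusted p = 0.0411), and lost that call on leaving out Rb/p107 DKO replicate 1 or 3, either of Rb KO replicates 1 and 2, or either of WT replicates 1 and 3 (adjusted p = 0.0528 to 0.17).

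**Figure D4:**
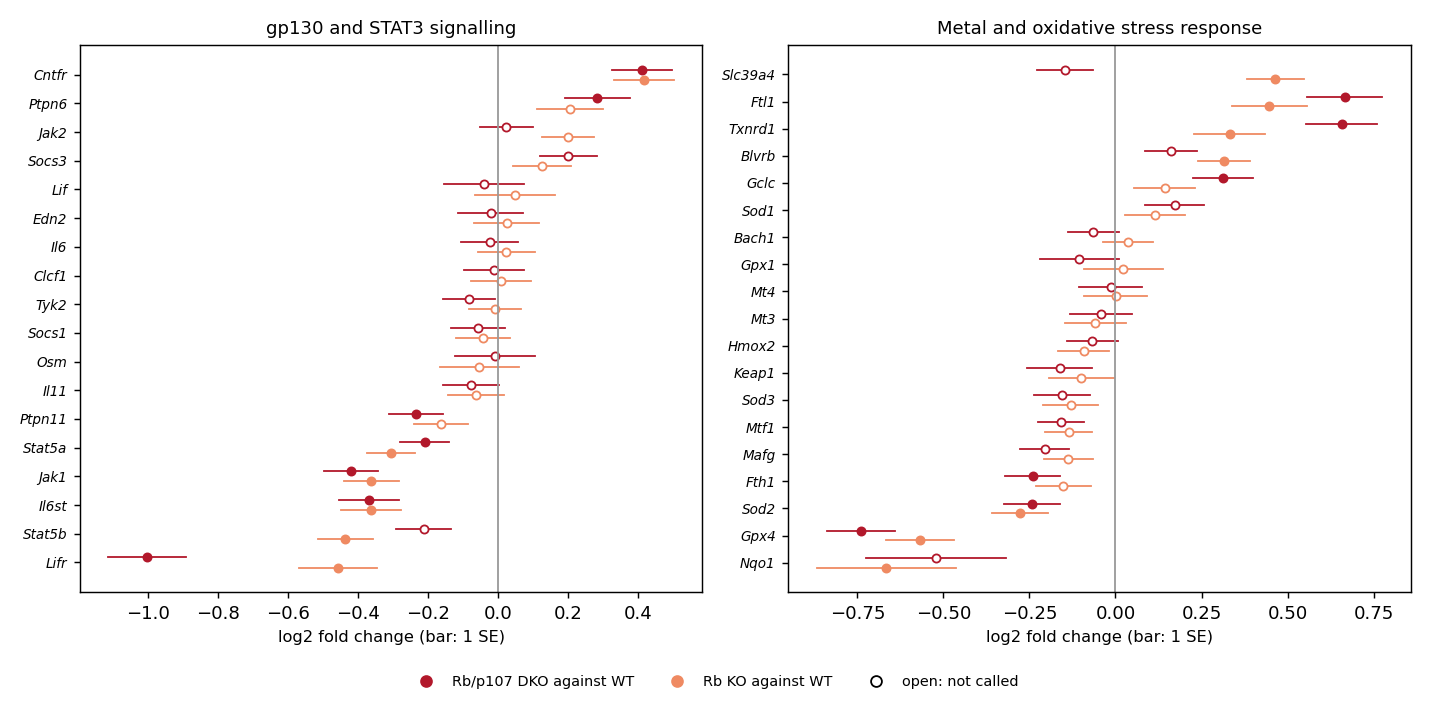
Fitted log2 fold change with 1 SE against WT for genes of gp130 and STAT3 signalling (left) and of the metal and oxidative stress response (right), in red for Rb/p107 DKO and orange for Rb KO, with open points where the call failed. Lifr, Jak1 and Il6st lie to the left of 0 in both mutants, and Ftl1 and Txnrd1 to the right.

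Among other genes of reactive glia that were measured, few were called. Of 26 listed genes 17 were measured, and 10 of these were in the background in every array. Vim, Nes, Lcn2, Cd44, Fgf2, Cebpb, Atf3, Cp and C3 were not measured, so the counts do not cover them. Of the 17 genes 2 rose and 1 fell in Rb/p107 DKO (17.6% called, against 29.3% of all genes), and 1 fell in Rb KO (5.88% called, against 24.4%). The fall was Synm, which encodes the intermediate filament protein synemin and read 7.97, 7.98 and 8.09 in Rb/p107 DKO, 8.29, 8.30 and 8.41 in Rb KO, and 8.52, 8.74 and 8.60 in WT. It was at least 1.18-fold lower in Rb/p107 DKO (adjusted p = 0.000256). Its fall in Rb KO (-0.29, SE 0.080, adjusted p = 0.0237) rests mostly on background readings, as only Rb KO replicate 3 was above its limit in that group. That fall was not called without Rb KO replicate 1 or 2, without WT replicate 2 (adjusted p = 0.05 to 0.0789) or with the covariate (adjusted p = 0.147). Steap4, a metalloreductase gene induced in reactive astrocytes, read 6.99, 7.15 and 8.65 in Rb/p107 DKO, 6.34, 6.01 and 5.93 in Rb KO, and 6.13, 6.00 and 5.95 in WT. It was called higher in Rb/p107 DKO than in WT (adjusted p = 0.00555) and than in Rb KO (adjusted p = 0.0465), with only Rb/p107 DKO replicate 3 above its limit. The call against Rb KO did not hold without any WT replicate or any Rb KO replicate in turn (adjusted p = 0.0517 to 0.161) or with the covariate (adjusted p = 0.0548). Plat, the tissue plasminogen activator gene, was called in Rb/p107 DKO (0.29, SE 0.097, adjusted p = 0.0471), which was lost on leaving out any Rb/p107 DKO replicate, either of Rb KO replicates 2 and 3, or either of WT replicates 1 and 3 (adjusted p = 0.0548 to 0.139).

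Mt1 and Mt2 encode the small, cysteine-rich metallothioneins that bind zinc and copper, and they are neighbouring genes on chromosome 8. Their transcription is known to be driven by metal through short metal response elements near the start. The promoter windows of RefSeq (GRCm38.p6, 250 bases before to 50 after the start, plus strand) are shown because these genes rose together. Capitals mark matches to the core of that element, searched as TGCACNC and TGCGCNC on both strands.
Mt1, chr8:94178839-94179138: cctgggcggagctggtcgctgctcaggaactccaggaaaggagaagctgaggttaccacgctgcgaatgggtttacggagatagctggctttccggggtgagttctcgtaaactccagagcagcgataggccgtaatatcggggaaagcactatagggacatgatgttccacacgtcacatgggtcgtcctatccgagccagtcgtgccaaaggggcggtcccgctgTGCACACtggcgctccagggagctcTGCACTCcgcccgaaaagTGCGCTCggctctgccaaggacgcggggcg
Mt2, chr8:94172368-94172667: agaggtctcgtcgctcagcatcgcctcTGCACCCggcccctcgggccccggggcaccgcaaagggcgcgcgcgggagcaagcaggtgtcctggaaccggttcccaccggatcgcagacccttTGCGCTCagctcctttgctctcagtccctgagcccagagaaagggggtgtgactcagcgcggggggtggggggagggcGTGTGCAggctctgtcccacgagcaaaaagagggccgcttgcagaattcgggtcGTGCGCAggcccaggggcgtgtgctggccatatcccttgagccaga

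The Mt1 window held 3 matches and the Mt2 window 4. Among 32851 such windows 1.97% held at least 3 and 0.517% at least 4, while 25.7% held at least 1. The windows of Mt3 and Mt4, the other genes of the cluster, held 1 match each. Windows were found for 6 of the 10 genes, and those of Gfap, Slc1a3, Osmr and Stat3 held none. A match describes letters and is no evidence of binding. RefSeq lists the start of the Mt1 gene at base 94178883, which lies inside the Mt1 window but is not the start it was built on. The Mt1 count therefore holds for that window alone.

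Mt1 and Mt2 rose in both mutants and stood highest in Rb/p107 DKO. Mt1 read 12.25, 12.26 and 12.35 in Rb/p107 DKO, 12.02, 11.86 and 11.53 in Rb KO, and 10.92, 10.95 and 10.87 in WT. Mt2 read 12.11, 12.01 and 12.30 in Rb/p107 DKO, 11.91, 11.47 and 11.03 in Rb KO, and 10.58, 10.23 and 10.59 in WT. For each gene every Rb/p107 DKO array was above every Rb KO array and every Rb KO array above every WT array, and within Rb KO each was highest in replicate 1 and lowest in replicate 3. This order of the groups was found for 3 of the 10 genes and for 2.55% of all genes.

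Mt1 was 2.59-fold higher in Rb/p107 DKO than in WT (log2 1.37, SE 0.111, adjusted p = 8.22e-06) and 1.85-fold higher in Rb KO (log2 0.89, SE 0.111, adjusted p = 0.000239). Mt2 was 3.19-fold higher in Rb/p107 DKO than in WT (log2 1.68, SE 0.188, adjusted p = 8.92e-05) and 2.01-fold higher in Rb KO (log2 1.01, SE 0.188, adjusted p = 0.00295). These 4 calls held under all 17 alternatives. Between the mutants Mt1 passed narrowly (log2 0.48, SE 0.111, adjusted p = 0.049), a call lost on leaving out any Rb/p107 DKO replicate, either of Rb KO replicates 2 and 3, or either of WT replicates 1 and 3 (adjusted p = 0.0683 to 0.188). It was also lost with the covariate (adjusted p = 0.0656), with quantile normalization repeated, with only the 2 mutants fitted and with the replicate block, and it held in 6 of 17 alternatives. Mt2 had the larger difference and the larger spread (log2 0.67, SE 0.188, adjusted p = 0.104), and it passed without Rb KO replicate 1 (adjusted p = 0.0383) and once dim genes were filtered out. How far the probe sets tell the transcripts of these similar genes apart was not determined here.

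Mt3, the brain metallothionein, and Mt4, the epithelial one, lie beside Mt2 and Mt1. Mt3 read 7.90, 7.95 and 7.91 in Rb/p107 DKO, 7.91, 7.92 and 7.87 in Rb KO, and 7.85, 8.17 and 7.86 in WT. It did not pass in Rb/p107 DKO (adjusted p = 0.773) or in Rb KO (adjusted p = 0.701), and only WT replicate 2 was above background. Mt4, named here after its values were seen, read 6.03 to 6.37 over the 9 arrays and was in the background throughout.

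**Figure D5:**
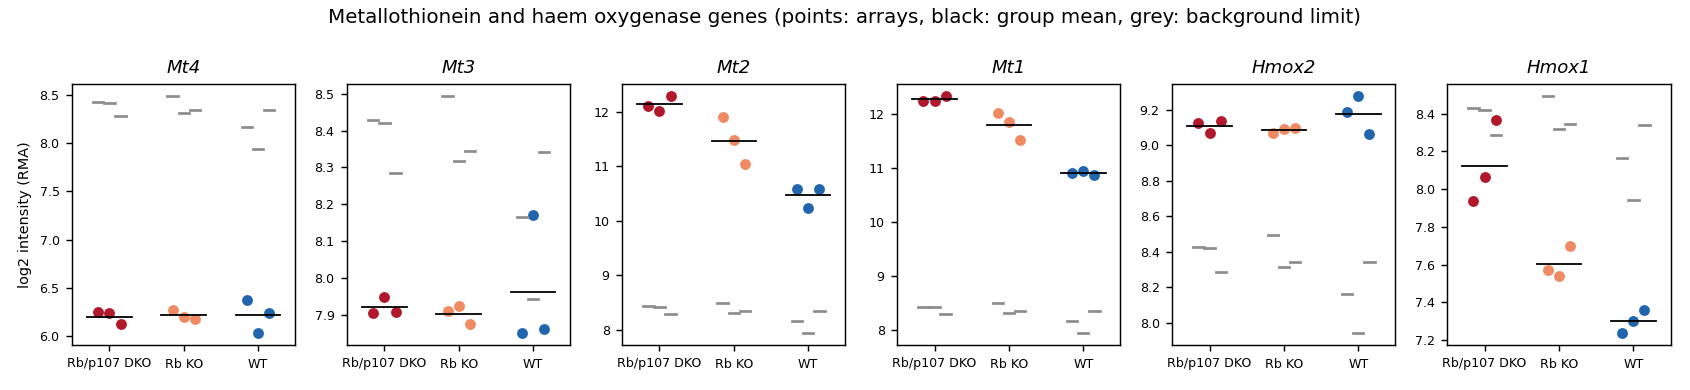
Log2 intensity (RMA) of the 4 metallothionein genes in their order along chromosome 8 and of the 2 haem oxygenase genes, in each array of Rb/p107 DKO, Rb KO and WT, with a black line at each group mean and a grey mark at each array's background limit; each panel has its own axis. Mt2, Mt1 and Hmox1 step down across the 3 groups, and Mt4, Mt3 and Hmox2 do not.

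Hmox1 encodes the inducible haem oxygenase, and Hmox2 the constitutive one. Hmox1 read 7.94, 8.07 and 8.37 in Rb/p107 DKO, 7.57, 7.54 and 7.70 in Rb KO, and 7.24, 7.30 and 7.36 in WT. The groups did not overlap and had the same order as for Mt1 and Mt2, but only Rb/p107 DKO replicate 3 was above its limit, so the size of the rise was not measured. Hmox1 was called higher in Rb/p107 DKO than in WT (adjusted p = 0.000219) and than in Rb KO (adjusted p = 0.0295). In Rb KO against WT it did not pass (adjusted p = 0.061), although it did without Rb/p107 DKO replicate 1 or 3 (adjusted p = 0.0267 to 0.0497), with only the 2 groups fitted and with the replicate block. The call between the mutants ended without any Rb KO replicate or without Rb/p107 DKO replicate 2 or 3 (adjusted p = 0.0573 to 0.105). Hmox2 was above background in all 9 arrays and did not pass in Rb/p107 DKO (-0.07, SE 0.074, adjusted p = 0.545) or in Rb KO (-0.09, SE 0.074, adjusted p = 0.426).

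Genes of the metal and oxidative stress response beyond these were called in both directions, as genes were over the whole array. Of 30 listed genes 19 were measured. The calls were 3 higher and 3 lower in Rb/p107 DKO (31.6% called, against 29.3% of all genes), and 4 higher and 3 lower in Rb KO (36.8% called, against 24.4%), with medians of -0.11 and -0.06. Ftl1, the ferritin light chain gene, read 11.07, 10.89 and 11.18 in Rb/p107 DKO, 10.98, 10.76 and 10.74 in Rb KO, and 10.46, 10.49 and 10.20 in WT. Its log2 fold changes were 0.67 in Rb/p107 DKO (SE 0.109, adjusted p = 0.00101) and 0.45 in Rb KO (SE 0.109, adjusted p = 0.0126), the last not called without Rb KO replicate 1 (adjusted p = 0.054). Txnrd1, the thioredoxin reductase gene, rose by 0.66 in Rb/p107 DKO (SE 0.103, adjusted p = 0.000773) and by 0.33 in Rb KO (adjusted p = 0.038), where the call was lost on leaving out Rb/p107 DKO replicate 1 or 3, either of Rb KO replicates 1 and 2, or either of WT replicates 1 and 3 (adjusted p = 0.0522 to 0.147). Gclc, an enzyme gene of glutathione synthesis, rose in Rb/p107 DKO (0.31, SE 0.088, adjusted p = 0.0218), not without WT replicate 1 or 3 or Rb/p107 DKO replicate 1 or 3 (adjusted p = 0.0657 to 0.0859).

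Gpx4, the glutathione peroxidase that protects membrane lipids, fell by 0.74 in Rb/p107 DKO and by 0.57 in Rb KO (SE 0.099 each, adjusted p = 0.000287 and 0.00197), calls that held under all 17 alternatives. The falls of Sod2 in both mutants (-0.24 in Rb/p107 DKO and -0.28 in Rb KO) and of Fth1 in Rb/p107 DKO (-0.24) were near the threshold. The Sod2 calls were lost on leaving out Rb/p107 DKO replicate 3, either of Rb KO replicates 1 and 2, or either of WT replicates 1 and 2, in Rb/p107 DKO also without its replicate 1 or 2 (adjusted p = 0.0512 to 0.171), and with the covariate (adjusted p = 0.295 in Rb/p107 DKO and 0.165 in Rb KO). The Fth1 call was lost on leaving out any Rb/p107 DKO replicate, either of Rb KO replicates 2 and 3, or either of WT replicates 1 and 2 (adjusted p = 0.0515 to 0.157), and with the covariate (adjusted p = 0.338). Slc39a4, a zinc importer gene, was called higher in Rb KO than in WT (adjusted p = 0.0021) and lower in Rb/p107 DKO than in Rb KO (adjusted p = 0.00319), all from background readings. Blvrb was called higher and Nqo1 lower in Rb KO from background readings as well, and the Nqo1 call ended without Rb KO replicate 1 or 2 (adjusted p = 0.109 to 0.113) or with the covariate (adjusted p = 0.289).

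Markers of microglia and macrophages, cells that also make haem oxygenase 1, were called only higher against WT, as Mt1 and Mt2 were. Against WT Hmox1 was called higher in Rb/p107 DKO alone. Between the mutants none of these markers was called. Of 14 markers 11 were measured, 6 rose in Rb/p107 DKO (54.5%) and 7 in Rb KO (63.6%), and none fell. Over all genes 12.2% were called higher and 17.1% lower in Rb/p107 DKO, and 10.2% higher and 14.3% lower in Rb KO. Their summed linear intensity was 2492 to 3391 in Rb/p107 DKO, 1999 to 3007 in Rb KO and 1533 to 1707 in WT. Of the 11 markers 8, among them Cx3cr1 and Aif1, were in the background in every array. The complement gene C1qb rose in both mutants, with 9.43, 9.21 and 9.70 in Rb/p107 DKO, 9.56, 9.63 and 8.68 in Rb KO, and 7.84, 7.97 and 7.76 in WT. Only 1 WT array was above its limit for C1qb. Cd68, a lysosomal gene of phagocytes, was at least 2.05-fold higher in Rb/p107 DKO and at least 1.30-fold higher in Rb KO. Within Rb KO, C1qb (8.68) and Cd68 (8.08, a background reading) were lowest in replicate 3. Vessel markers were called the other way: of 11 measured 10 fell in Rb/p107 DKO (90.9%) and 9 in Rb KO (81.8%). Their summed intensity was 4927 to 5298 in Rb/p107 DKO, 5305 to 5672 in Rb KO and 6450 to 7702 in WT. Of the 11, 9 had background readings alone in Rb/p107 DKO, 10 in Rb KO and 3 in WT. Only 1 fall in Rb/p107 DKO and 0 in Rb KO had a measured size. Of 8 measured markers of cycling cells all rose in both mutants, with a summed intensity of 14199 to 16316 in Rb/p107 DKO, 10686 to 14332 in Rb KO and 961 to 1147 in WT. All 8 had background readings alone in WT, so the size of their rise was not measured. Of 11 measured lens and pigment epithelium markers 5 fell in each mutant, all of them pigment epithelium genes with mutant readings in the background. The lens crystallin genes Cryaa and Crygs were called higher in Rb/p107 DKO (adjusted p = 0.0117 and 0.0382), and both were highest in replicate 2. Cryaa read 9.20, 11.22 and 8.83 in the Rb/p107 DKO arrays and Crygs 6.45, 8.97 and 6.21. Both calls ended with the covariate (adjusted p = 0.0947 and 0.187), and the Crygs call also without any Rb KO replicate or without WT replicate 1 or 3 (adjusted p = 0.0508 to 0.108). The part of these cells in the results for Hmox1, Mt1, Mt2 and Clu was not tested.

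The relatives of Dkk3 and the Wnt receptors were scattered. Of 23 listed genes 18 were measured. The calls were 4 higher and 3 lower in Rb/p107 DKO (38.9% called, against 29.3% of all genes), and 3 higher in Rb KO (16.7% called, against 24.4%), with medians of 0.03 and -0.01. Dkk1 and Dkk4, secreted Wnt inhibitors of the same family, were in the background in every array. Sfrp1, a secreted Wnt-binding protein of progenitors, read 9.23, 9.19 and 8.98 in Rb/p107 DKO, 8.70, 8.44 and 8.48 in Rb KO, and 7.36, 8.27 and 7.69 in WT. It rose by 1.36 in Rb/p107 DKO (SE 0.188, adjusted p = 0.000339) and by 0.76 in Rb KO (SE 0.188, adjusted p = 0.013), the last not called without Rb KO replicate 1 (adjusted p = 0.0611). The receptor genes Fzd3 (0.89 in Rb/p107 DKO and 0.51 in Rb KO, SE 0.110 each) and Lrp5 (0.79 in Rb/p107 DKO and 0.78 in Rb KO, SE 0.139 each) rose in both mutants. For Sfrp1 and Lrp5 only 1 WT array was above its limit, so their sizes rest mostly on background readings in WT. Fzd6 fell in Rb/p107 DKO (-0.38, adjusted p = 0.0126), not called without Rb/p107 DKO replicate 1 or 3 (adjusted p = 0.0502 to 0.0519) or with the covariate (adjusted p = 0.142). Fzd4 and Dkkl1 were called lower there with Rb/p107 DKO readings in the background. The Fzd4 call ended with the covariate (adjusted p = 0.0855), and the Dkkl1 call was lost on leaving out any Rb/p107 DKO replicate, Rb KO replicate 2, or either of WT replicates 1 and 2 (adjusted p = 0.051 to 0.138) and with the covariate (adjusted p = 0.357).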

How the data were processed

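RNA of 9 retina samples was hybridized to Affymetrix whole-transcript arrays. The deposited values are log2 intensities per probe set. The authors made them by RMA, a robust averaging over probes, according to the submitters' notes, and no software version or annotation build is stated there. Of 52917 transcript clusters 24646 had 1 gene symbol, 1795 several and 26476 none listed. The brightest probe set by mean stood for a gene, which gave 24257 genes, and symbols were updated through a RefSeq table of GRCm38.p6, which held 24010 of them. Groups were compared with limma 3.58.1 in R 4.3.3 on all 9 arrays (6 residual and 4.69 prior degrees of freedom), with Benjamini-Hochberg adjustment over all genes. The procedure was tested on simulated data, and figures were drawn with matplotlib 3.10.9. With 3 arrays per group, their number limits the precision.

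A bound ("at least") sets the mean of the higher group against that of the lower one after each of its readings was raised to at least the array's background limit. Alternatives changed the normalization, the probe set, a dim filter (above the limit in at least 3 arrays), the variance model, the samples fitted, a replicate block, a control covariate and each array left out. The members and gene lists were chosen with earlier results of these data known. All 10 members are named, and from the other lists mainly the called genes with the lowest p, up to 3 in each direction. None of the listed genes on chromosomes 1, 2 or 3 was measured, and the 24257 genes tested do not include them. Same-numbered arrays did not deviate together (correlations of -0.16 to 0.15 over 9 pairs), and the main fit did not pair them. These correlations cannot show whether same-numbered samples were collected or handled together.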

Additional observations from a re-analysis of the deposited data

Results flagged for a closer look

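For 3 genes the limma test of Rb/p107 DKO against Rb KO itself was called. Mt1 stood 0.48 higher on the log2 scale in Rb/p107 DKO (adjusted p = 0.049), with all arrays above background. For Gfap (fitted 0.78, adjusted p = 0.0298) and Hmox1 (fitted 0.52, adjusted p = 0.0295) all Rb KO arrays and all but 1 Rb/p107 DKO array read in the background, so these fitted values are differences between mostly background readings and give no size of a change. Each of the 3 calls ended when single arrays were left out.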

How the results depend on the processing

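Of 498 refits of the 10 genes in the 3 comparisons, 441 kept the direction and the side of the threshold, 37 lost a call, 10 gained one and 10 changed sign without a call. The number of genes called in Rb KO against WT was 7 and ran from 6 to 8 with single arrays left out, and it was 4 with the control separation as a covariate. In Rb/p107 DKO against WT it was 7, with 6 to 7 when arrays were left out and 4 of 6 with dim genes filtered, where fewer genes were tested. Between the mutants it was 3, with 0 to 3 when arrays were left out and 1 with the replicate block. The count that differed among the 3 groups was 8 in every leave-out and 5 of 6 with dim genes filtered. With the replicate block the other counts were 7, 7 and 8, but in Rb KO against WT the Gfap call was lost and the Hmox1 call gained. Apart from Gfap and Mt1 it ended only the Hes1, Stat5a, Ptpn6, Steap4, Sod2, Fth1 and Dkkl1 calls. Over all genes 607 were called between the mutants, and 252 to 858 with single arrays left out. With the covariate Gfap was gained in Rb/p107 DKO against WT. Signs turned only in values that were not called. With arrays left out, the difference between the mutants ran from -0.1171 to 0.0953 for Aqp4, from -0.0955 to 0.0552 for Slc1a3 (0.0001 with the covariate) and from -0.249 to 0.024 for Clu, and Dkk3 in Rb/p107 DKO against WT from -0.0473 to 0.1077. Mt3 ran from -0.0965 to 0.0633 in Rb/p107 DKO and from -0.1136 to 0.0462 in Rb KO, turning without WT replicate 2. With the covariate Mt3 stood at 0.0843 and 0.0466 and Hmox2 at 0.0489 and 0.0048, in Rb/p107 DKO and Rb KO. Apart from fewer genes or samples, the cause was not tested. Signal near background limits Gfap, Aqp4, Hmox1 and Osmr.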

Other observations

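Of the 3 Rb/p107 DKO arrays, replicate 3 gave the highest reading for 6 of the 10 genes (Gfap, Mt1, Mt2, Hmox1, Osmr and Stat3), and for Steap4 as well. Its Gfap reading was 8.52, against 7.94 and 7.85 in the other 2 arrays of the group, and its Steap4 reading 8.65, against 6.99 and 7.15. Of the WT arrays, replicate 2 gave the highest reading for 7 of the 10 genes, and of the Rb KO arrays replicate 3 did for 5. Such a count is therefore not particular to Rb/p107 DKO replicate 3. That array was noticed after its values were seen, and the pattern was not tested.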
